A study of Mus musculus with 12 samples.

Results

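Cells adjust to low oxygen and to their own demand for sugar through a shared set of genes, and 37 of those genes were followed here through the first hours of retinoic acid (RA) treatment of mouse embryonic stem (ES) cells. They were chosen by gene symbol and role, with earlier results of these data known. The list holds 2 hypoxia-inducible factors (HIF), 15 targets of these factors and 15 enzymes of core glycolysis. A further 5 genes regulate glycolysis or carry glucose and lactate across the cell membrane. Of the 37 genes, 33 had at least 1 probe set that the annotation gives to a single gene, and these were tested among 18193 genes, with 70 of the array's 45101 probe sets between them. The other 4 were not tested as single genes: the probe sets of Bnip3l and Gapdh are shared with pseudogenes or serve as array controls, and no probe set was named for Gpi1 or Eno1 alone.

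KH2 is a mouse ES cell line, and its cells were grown on feeder cells, a layer of fibroblasts that supports ES cells. The cells were left without RA, or received 0.3 µM RA, a vitamin A derivative that starts differentiation, for 2, 4 or 6 h in a differentiation medium of DMEM with serum and NAA, as the label abbreviates it. The labels do not say that untreated cells were moved to that medium, so RA and the change of medium cannot be told apart. Each of the 4 groups has 3 Affymetrix arrays, lettered A, B and C. All 12 arrays came from the same line, and nothing in the labels states that the letters are separate cultures, so the p-values measure only the spread between these arrays, which may be technical. Before RNA was taken, cells were plated on gelatin for a short time, a step that separates feeders from ES cells by how fast they attach, and the protocols differ on whether attached or unattached cells were collected. All levels are log2 signal as deposited, all differences are in log2 units and carry a standard error (SE) from the model, and a gene was called where the Benjamini-Hochberg adjusted p from limma was under 0.05.

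HIF is a pair of an oxygen-sensitive alpha subunit, encoded by Hif1a or Epas1, and a stable beta subunit. In oxygen, prolyl hydroxylases such as those encoded by Egln1 and Egln3 mark the alpha subunit for destruction, and in low oxygen the pair binds short DNA elements beside genes for blood vessel growth, iron and pH control, mitochondrial removal and sugar use. Glycolysis splits glucose into pyruvate, and ES cells are known for running it fast even in oxygen.

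The core of the HIF element reads ACGTG or GCGTG, and the first of these also lies within CACGTG, the E-box that other factors bind. Promoter windows in the RefSeq table for build GRCm38.p6 run from 250 bases before to 50 bases after a listed start. They were found for 31 of the 37 genes, and a listed start can lie inside the annotated gene. Slc2a3, Bhlhe40, Ndrg1, Bnip3l, Epas1 and Plod2 had no entry. On either strand, 37 of the 45 windows of these genes (82.2%) held at least 1 core, and so did 14380 of 32851 windows in the whole table (43.8%). Some windows of the same gene overlap. By gene, 29 of 31 members had a core in a window, against 12628 of 27025 genes. Both cores contain the letters CG, and windows were not matched for base composition. The share was 11 of 13 windows for HIF targets and 20 of 26 for core glycolysis genes. CACGTG was present in 5 of the 45 windows (11.1%) and in 7.15% of all windows. The 200 bases before the listed start are shown for 2 genes that rose during treatment, Ankrd37 and Slc2a1, and for 2 that fell, Bnip3 and Pfkp. The cores can thus be compared with the directions below. Capitals mark each core, read on either strand, and overlapping cores run together.
Ankrd37: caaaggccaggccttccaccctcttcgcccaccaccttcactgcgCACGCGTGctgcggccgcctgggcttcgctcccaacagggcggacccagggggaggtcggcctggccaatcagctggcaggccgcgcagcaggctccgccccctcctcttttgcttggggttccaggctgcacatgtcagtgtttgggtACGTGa
Slc2a1: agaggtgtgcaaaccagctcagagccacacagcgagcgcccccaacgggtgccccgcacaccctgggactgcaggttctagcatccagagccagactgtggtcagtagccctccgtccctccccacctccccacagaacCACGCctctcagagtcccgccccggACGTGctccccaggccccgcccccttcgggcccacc
Bnip3: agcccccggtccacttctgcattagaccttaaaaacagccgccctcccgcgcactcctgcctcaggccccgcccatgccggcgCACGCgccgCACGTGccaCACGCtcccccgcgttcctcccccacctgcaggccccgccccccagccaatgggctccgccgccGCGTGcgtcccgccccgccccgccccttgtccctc
Pfkp: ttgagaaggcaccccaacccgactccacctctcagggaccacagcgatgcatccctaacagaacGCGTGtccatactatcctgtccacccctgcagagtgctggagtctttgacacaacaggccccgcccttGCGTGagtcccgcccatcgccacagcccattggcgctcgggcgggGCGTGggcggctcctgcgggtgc

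The Ankrd37 stretch lies at chr8:45999851-46000050 on the minus strand and holds 3 cores, the nearest of them beginning 6 bases before the listed start. The annotated gene reaches farther upstream, to 46000414, so this stretch lies inside it. The Slc2a1 stretch, chr4:119108545-119108744 on the plus strand, holds 2. The Bnip3 stretch, chr7:138909507-138909706 on the minus strand, holds 5, of which a pair is the CACGTG palindrome read on both strands. The Pfkp stretch, chr13:6648772-6648971 on the minus strand, holds 3, and it too lies inside the annotated gene, which reaches upstream to 6649060. Cores were found before genes of both directions: 8 of 9 windows of members higher at 6 h held one, against 15 of 19 windows of members lower at 6 h and 10 of 12 windows of members with no call. A match in the letters is a description and does not show that a factor binds there.

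The arrays were alike in scale, with medians between 6.05 and 6.10 around an overall median of 6.07. Replicate arrays correlated at 0.9928 or above, lowest among the untreated. The RA genes Cyp26a1, which breaks down RA, and Hoxb1 were higher by 6.46 and 5.69 at 6 h, both with untreated signal under the overall median. The list of 12 ES cell markers averaged 12.57 to 12.6 on untreated arrays, 12.52 to 12.55 at 2 h, 12.22 to 12.3 at 4 h and 12.16 to 12.24 at 6 h. Feeder RNA was present throughout: of 29 measured feeder markers, 23 lay above the overall median on every array and 1 below it on every array. Their mean ranged from 8.164 to 8.675 over untreated arrays, 8.504 to 8.678 at 2 h, 8.549 to 8.679 at 4 h and 8.427 to 8.557 at 6 h. The part that feeder RNA has in the results below was not tested. The 3′ minus 5′ signal of the control transcript Gapdh, a sign of RNA integrity, stayed between -0.05 and 0.05 on all arrays, and that of Actb between 0.46 and 0.60.

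The first question is how far the 33 genes moved against untreated cells, and when. At 2 h 3 of them passed the test, and from 4 h most did, more of them down than up. At 2 h 1 gene was higher (Vegfa) and 2 were lower (Epas1 and Hk2), where 1.5% of the genes tested were up and 1.19% down (2.68% in either direction). At 4 h 6 members were up and 17 down, where the shares of all genes were 12.8% and 14.1% (26.9% in either direction). At 6 h 8 members were up and 13 down, against 15% and 14.7% of all genes (29.7% in either direction). The median difference of the 33 was -0.01, -0.19 and -0.15 at 2, 4 and 6 h, and that of all genes was within 0.0135 of 0.

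Dim genes are seldom called, which bears on the comparison with all genes. Among the 11690 genes with a mean above the overall median the share called was 42.5% at 4 h and 46% at 6 h, with 24 and 21 of 32 members called in that fit. Overlap between groups needs no model. The 3 RA arrays did not overlap the 3 untreated arrays for 6, 30 and 26 of 33 members at 2, 4 and 6 h, against 22.2%, 37% and 39% of all genes. Counted by probe set, 1 of the 70 was higher and 2 lower at 2 h (0.904% and 0.906% of all probe sets, 1.81% together), 10 of the 70 were higher and 27 lower at 4 h (9.34% and 9.36%, 18.7% together), and 14 were higher and 28 lower at 6 h (10.8% and 9.83%, 20.6% together). In this fit of all probe sets, no member had probe sets called in both directions against untreated cells. Between 2 and 6 h those of Egln1 were, at 0.49 and -0.51 (adjusted p = 0.00857 and 0.00381, limma).

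**Figure D1:**
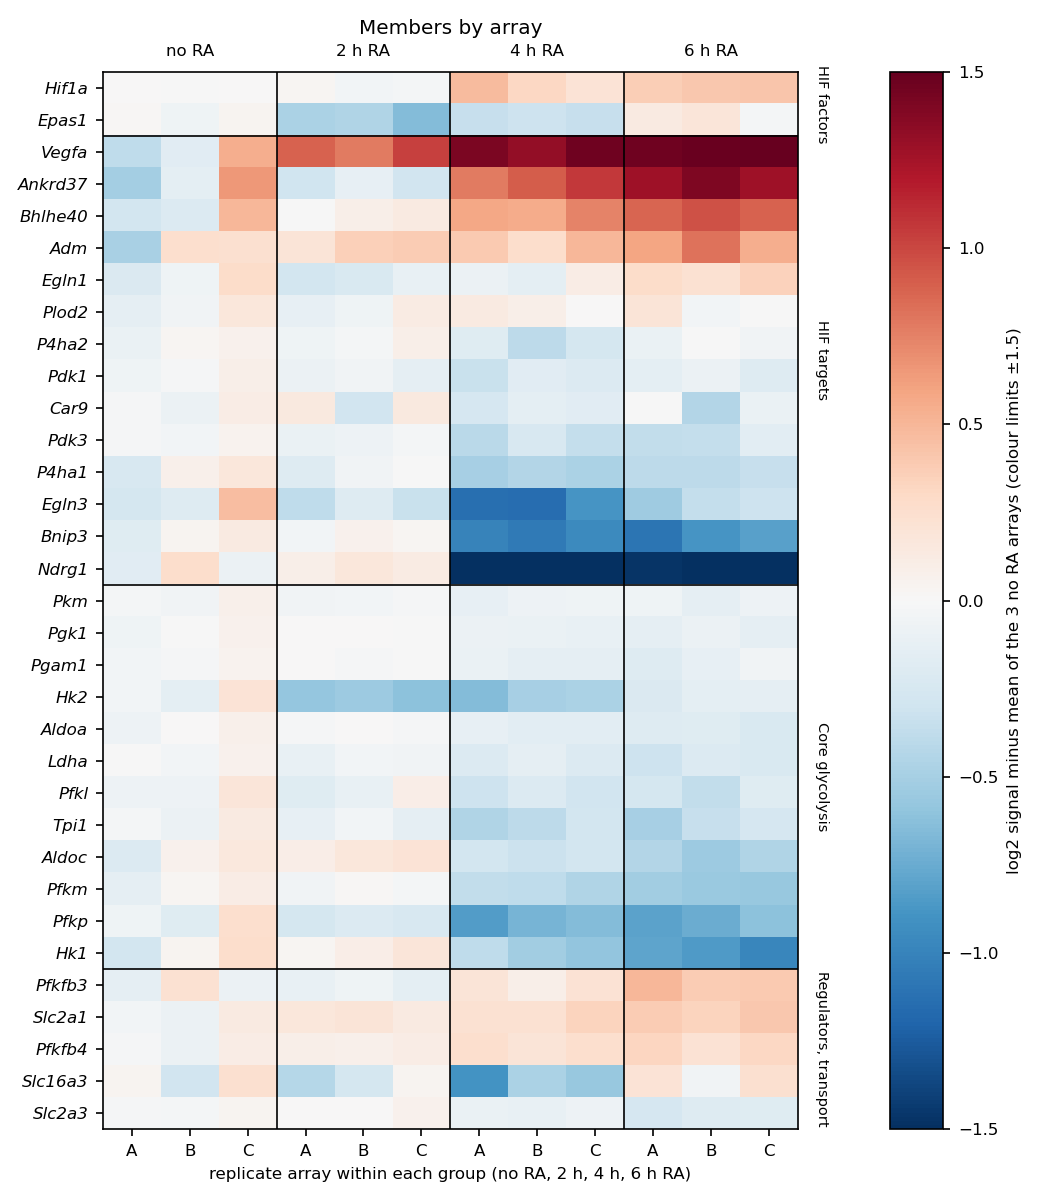
Each cell is a member's log2 signal on 1 array minus the mean of the 3 untreated arrays (columns, replicates A to C of no RA, 2, 4 and 6 h RA), with the 33 members in their 4 groups and colour limits of ±1.5. Core glycolysis genes are mostly pale blue from 4 h, while HIF targets split into genes above and genes below the untreated level.

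The HIF factors themselves changed at different times. Hif1a, which encodes the widely expressed alpha subunit, had levels of 11.71, 11.69 and 11.71 on untreated arrays, 11.73, 11.66 and 11.67 at 2 h, 12.17, 12.01 and 11.90 at 4 h, and 12.07, 12.11 and 12.12 at 6 h. All arrays at 4 and 6 h were above all untreated arrays, and the untreated arrays were nearly equal. It was higher by 0.32 ± 0.068 at 4 h and 0.40 ± 0.068 at 6 h (adjusted p = 0.00399 and 0.000883, limma), and the 2 h difference was -0.01. A second Hif1a probe set was higher by 0.52 and 0.43, whereas another pair, both with untreated means under the overall median, had differences of -0.26 to -0.27 at 4 h that were not called. With all Hif1a probe sets averaged, neither time was called (0.08 and 0.05, adjusted p = 0.331 and 0.515).

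Epas1, which encodes the HIF2 alpha subunit, had levels of 10.11, 10.03 and 10.13 on untreated arrays, 9.61, 9.64 and 9.44 at 2 h, 9.74, 9.78 and 9.75 at 4 h, and 10.23, 10.27 and 10.06 at 6 h. The arrays at 2 and 4 h lay below every untreated array, and those at 6 h overlapped them. The difference was -0.52 ± 0.073 at 2 h (adjusted p = 0.00223), -0.33 at 4 h (0.00556) and 0.10 at 6 h (0.368). It was the only member called between 4 and 6 h, a step in which 0.588% of all genes were called. That rise of 0.43 (adjusted p = 0.0292, limma) was lost without RA 2 h replicate A (0.0543), any 4 h array or 6 h replicate A or B, and with its 2 probe sets averaged. The 6 h minus 2 h difference of 0.62 had an adjusted p of 8.38e-05, in a comparison where 32.1% of all genes were called and the arrays of 51.9% did not overlap. The second Epas1 probe set was not called at 2 h (-0.31, adjusted p = 0.162 over all probe sets) or 4 h (-0.25, 0.123). Its 6 h arrays still lay below every untreated array (-0.19, 0.22), and its 6 h minus 2 h difference was 0.115 (0.462). With both averaged, the 2 and 4 h calls were kept.

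Among the sensors that switch HIF off, Egln3 was lower at 4 h, and the probe sets of Egln1 disagreed. Egln3, a prolyl hydroxylase whose gene is itself a HIF target, had levels of 10.53, 10.60 and 11.25 on untreated arrays, 10.41, 10.60 and 10.46 at 2 h, 9.66, 9.65 and 9.90 at 4 h, and 10.26, 10.43 and 10.48 at 6 h. The 4 h arrays stood below all others. Egln3 was lower, at -1.06 ± 0.16 at 4 h (adjusted p = 0.000484), with both its probe sets called, and the 6 h difference of -0.40 was not called (0.0766). Egln1, the main oxygen sensor of the family, was not called against untreated cells at any time on the probe set used for the gene (0.29 ± 0.11 at 6 h, adjusted p = 0.0814). Its other probe set was lower, at -0.83 at 4 h and -0.66 at 6 h. The 6 h minus 2 h rise of 0.49 on the first (adjusted p = 0.00614) became -0.01 with both averaged (0.963), so no direction is given for this gene.

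Of the 14 measured HIF targets, which include Egln1 and Egln3, 1 was higher and none lower at 2 h, 3 were higher and 7 lower at 4 h, and 4 were higher and 4 lower at 6 h. Over all genes the shares were 1.5% and 1.19% at 2 h, 12.8% and 14.1% at 4 h, and 15% and 14.7% at 6 h. The median difference of the targets was -0.01, -0.21 and -0.10, so the middle of the list says little about its members, which ran from -1.68 to 1.40 at 4 h and from -1.55 to 1.5 at 6 h. Those that rose were Vegfa, Ankrd37, Bhlhe40 and Adm.

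Vegfa, the growth factor that draws blood vessels into poorly supplied tissue, rose most among the members and the earliest. Its levels were 7.29, 7.5 and 8.22 on untreated arrays, 8.56, 8.45 and 8.70 at 2 h, 9.09, 8.99 and 9.13 at 4 h, and 9.13, 9.15 and 9.25 at 6 h. Every RA array was above every untreated array, and untreated replicate C was the highest of its group. The differences were 0.90, 1.40 and 1.5 ± 0.18 (1.86-, 2.63- and 2.83-fold; adjusted p = 0.022, 0.000177 and 8.45e-05). The 2 h call was lost without untreated replicate A (0.0588) or B (0.0505), and likewise without any one of the 2 h arrays (0.0588 to 0.0923). It was also lost when only the arrays of both groups were fitted (0.166). The second Vegfa probe set had smaller differences, 0.42 at 4 h (not called) and 0.49 at 6 h (adjusted p = 0.0314 over all probe sets).

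Ankrd37, an ankyrin repeat protein gene with a compact HIF-driven promoter, rose later. Its levels were 8.18, 8.54 and 9.34 on untreated arrays, 8.39, 8.56 and 8.40 at 2 h, 9.47, 9.59 and 9.74 at 4 h, and 9.96, 10.08 and 9.96 at 6 h. The 2 h arrays lay within the untreated range and all later arrays above it, although untreated C came close to the lowest 4 h array. The differences were -0.23 at 2 h, 0.92 at 4 h and 1.31 at 6 h, each ± 0.21, with adjusted p = 0.00748 and 0.000666 at the later times. The 4 h call was lost when only the arrays of both groups were fitted (adjusted p = 0.0543). Between 2 and 4 h the gene rose by 1.15 (adjusted p = 0.00254), a step in which 12.7% of all genes were higher.

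Bhlhe40, a transcriptional repressor that also takes part in the circadian clock, had levels of 9.97, 10.04 and 10.75 on untreated arrays, 10.24, 10.34 and 10.38 at 2 h, 10.83, 10.81 and 10.99 at 4 h, and 11.12, 11.20 and 11.13 at 6 h. The arrays at 4 and 6 h were above all untreated arrays, and C was again the highest untreated one. It was higher by 0.63 ± 0.16 at 4 h (adjusted p = 0.0116) and 0.90 at 6 h (0.00115). The 4 h call was lost when only the arrays of both groups were fitted (0.07). Without untreated C the 2 h difference of 0.32 was called as well (0.0343).

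Adm, which encodes the vasodilator peptide adrenomedullin, had levels of 6.27, 7.0 and 6.99 on untreated arrays, 6.95, 7.11 and 7.13 at 2 h, 7.14, 7.01 and 7.25 at 4 h, and 7.34, 7.57 and 7.30 at 6 h. Only at 6 h did it pass the test, by 0.65 ± 0.16 (adjusted p = 0.0102), with both probe sets higher. Untreated A was the low array, and without it the difference was 0.41 (0.0103). With only the arrays of both groups fitted, the 6 h call was lost (0.0536).

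**Figure D2:**
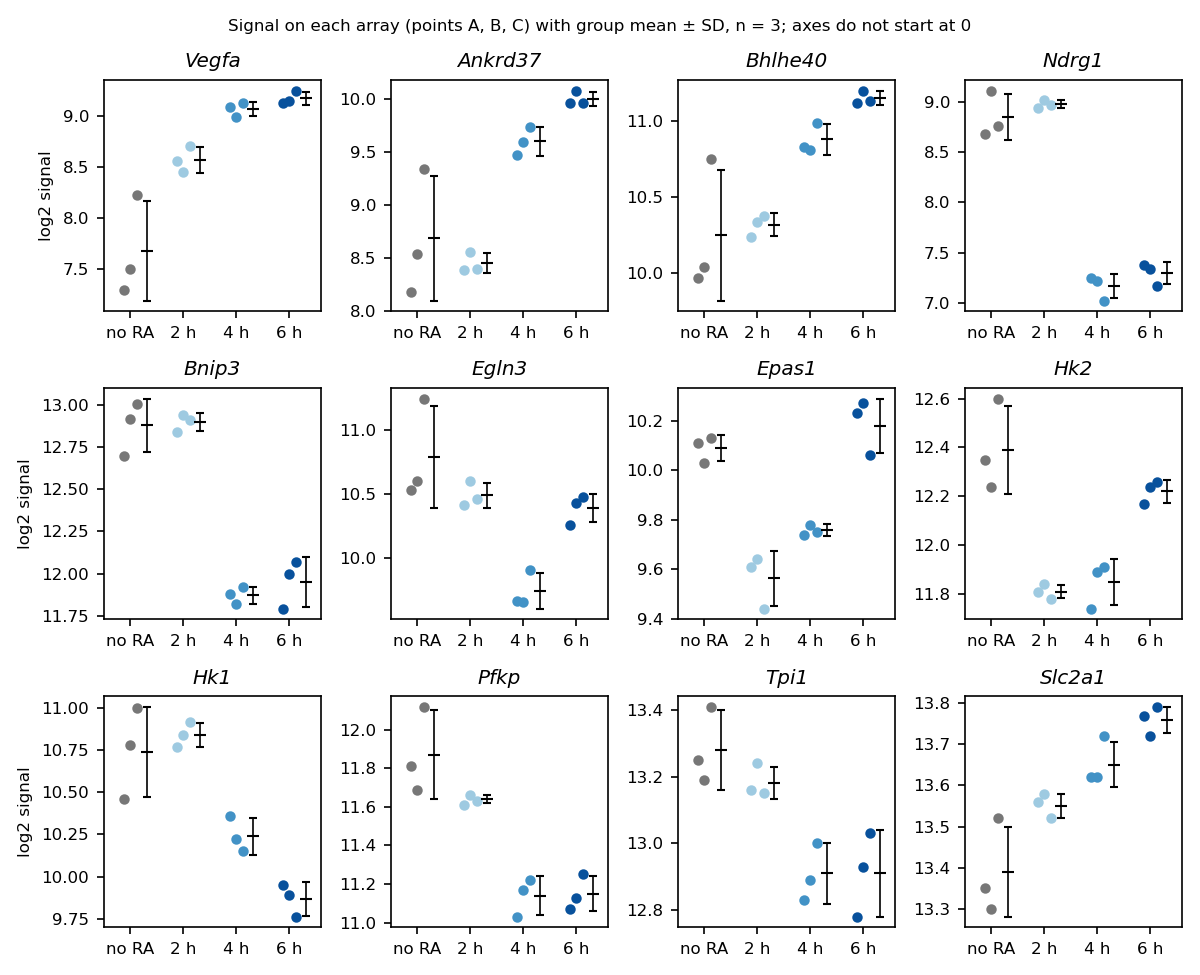
Log2 signal of 12 members on each array (points, replicates A to C) by group, with the group mean ± SD (n = 3) beside the points; axes do not start at 0. Vegfa, Ankrd37, Bhlhe40 and Slc2a1 are above the untreated arrays at 6 h, Ndrg1, Bnip3, Hk1 and Pfkp below them, and Epas1 and Hk2 dip at 2 and 4 h.

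Ndrg1 and Bnip3 both fell between 2 and 4 h. Ndrg1, a cytoplasmic protein gene that hypoxia and differentiation are known to induce, had levels of 8.68, 9.11 and 8.76 on untreated arrays, 8.94, 9.02 and 8.97 at 2 h, 7.25, 7.22 and 7.02 at 4 h, and 7.38, 7.34 and 7.17 at 6 h. The arrays divide into a high set at 0 and 2 h and a low set at 4 and 6 h with a wide gap between them. It was lower, at -1.68 ± 0.11 at 4 h (3.21-fold, adjusted p = 1.53e-06) and -1.55 at 6 h (2.94-fold, 2.06e-06), with all 5 of its probe sets called lower at both times, with differences of -0.35 to -1.85 at 4 h. The step from 2 to 4 h was -1.81 (adjusted p = 4.39e-06), where 11.9% of all genes were lower.

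Bnip3, which marks mitochondria for removal, had levels of 12.70, 12.92 and 13.01 on untreated arrays, 12.84, 12.94 and 12.91 at 2 h, 11.88, 11.82 and 11.92 at 4 h, and 11.79, 12 and 12.07 at 6 h. As for Ndrg1, no array at 4 or 6 h reached an earlier one. The differences were -1.0 ± 0.09 at 4 h (adjusted p = 1.83e-05) and -0.92 at 6 h (2.04e-05), and 0.02 at 2 h, and the step from 2 to 4 h was -1.02. In bulk RNA, fewer cells that express a gene and less of its RNA per cell cannot be told apart, here and for the genes below.

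The remaining targets moved by less. P4ha1 and P4ha2, which encode the catalytic subunits of collagen prolyl 4-hydroxylase, were lower at 4 h, with differences of -0.47 ± 0.093 and -0.28 ± 0.07 (adjusted p = 0.00284 and 0.0107), and at 6 h P4ha1 stayed lower (-0.38, 0.00857) while P4ha2 had a difference of -0.05. The pyruvate dehydrogenase kinases, which inhibit pyruvate dehydrogenase, were slightly lower: Pdk3 at -0.33 and -0.29 ± 0.071 at 4 and 6 h (adjusted p = 0.00436 and 0.00768) and Pdk1 at -0.24 ± 0.065 at 4 h (0.0182). The Pdk1 call was lost without RA 4 h replicate A (0.0789), and the P4ha2 call without RA 4 h replicate B (0.0524). Averaged over its 4 probe sets Pdk1 had a difference of -0.05 at 4 h (0.696). Plod2, a lysyl hydroxylase of collagen, and Car9, a carbonic anhydrase at the cell surface, were not called at any time against untreated cells. Plod2 differences lay between -0.01 and 0.08 on the probe set used and between -0.31 and -0.18 on the other, which was not called either. Car9 was under the overall median on 7 of 12 arrays, where a change would be hard to see.

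Calls for core glycolysis genes against untreated cells were all in the lower direction on the probe sets used. None of the 12 measured genes was higher, 1 was lower at 2 h (1.19% of all genes), 8 at 4 h (14.1%) and 8 at 6 h (14.7%), and at each of the later times 4 were not called. Their median difference was -0.03, -0.28 and -0.26 at 2, 4 and 6 h, and the genes ran from -0.73 to -0.09 at 4 h and from -0.88 to -0.09 at 6 h. For 3, 12 and 11 of the 12 the RA arrays did not overlap the untreated arrays, against 22.2%, 37% and 39% of all genes. The 4 h count depends on single arrays. Without untreated C it was 5, with 7 at 6 h, and the medians were -0.20 and -0.21. Without untreated A 9 were lower at 4 h. The 4 h calls of Pfkl, Aldoc and Ldha were also lost without RA 4 h replicate A or C, and those of Pfkl and Aldoc without B. With only the arrays of both groups fitted, Pfkl, Aldoc and Ldha were not called at 4 h, nor Pfkl and Aldoa at 6 h. With a trended and robust variance, more were called lower: Aldoa at 4 h (adjusted p = 0.00602, limma), and Pgk1 and Pgam1 at 4 and 6 h.

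The first step of glycolysis, phosphorylation of glucose by hexokinase, has 2 members with different courses. Hk1, the constitutive hexokinase, had levels of 10.46, 10.78 and 11.00 on untreated arrays, 10.77, 10.84 and 10.92 at 2 h, 10.36, 10.22 and 10.15 at 4 h, and 9.95, 9.89 and 9.76 at 6 h. The 6 h arrays were the lowest and those at 2 h lay inside the untreated range. Hk1 was lower, at -0.50 ± 0.12 at 4 h and -0.88 at 6 h (adjusted p = 0.00712 and 0.000168). Hk2, the inducible hexokinase and a HIF target, had levels of 12.35, 12.24 and 12.60 on untreated arrays, 11.81, 11.84 and 11.78 at 2 h, 11.74, 11.89 and 11.91 at 4 h, and 12.17, 12.24 and 12.26 at 6 h. All arrays at 2 and 4 h lay below the untreated ones, and those at 6 h overlapped them. Its differences were -0.59 ± 0.086 at 2 h (adjusted p = 0.00336), -0.54 at 4 h (0.000695) and -0.17 at 6 h (0.166), and between 2 and 6 h it rose by 0.41 (0.00329), the only core glycolysis gene to do so, where 17.1% of all genes were higher. With only the arrays of both groups fitted, the 2 h call of Hk2 was lost (0.0592).

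Phosphofructokinase, the committed step, is encoded by Pfkp, Pfkm and Pfkl, named for platelet, muscle and liver. Pfkp had levels of 11.81, 11.69 and 12.12 on untreated arrays, 11.61, 11.66 and 11.63 at 2 h, 11.03, 11.17 and 11.22 at 4 h, and 11.07, 11.13 and 11.25 at 6 h. All later arrays were below all arrays at 0 and 2 h. It was lower, at -0.73 ± 0.10 at 4 h and -0.72 at 6 h (adjusted p = 0.000281 and 0.000245), on all 3 of its probe sets. Pfkm was lower, at -0.40 and -0.55 ± 0.066 (adjusted p = 0.00091 and 9.34e-05), with levels of 9.14 to 9.19 at 6 h against 9.57 to 9.82 on untreated arrays. Pfkl passed only narrowly, at -0.27 ± 0.092 at 4 h with an adjusted p just under the threshold and -0.28 at 6 h (0.0412), and the call was lost in 9 of the 12 fits that left out an array at 4 h and in 7 at 6 h. Without untreated C the differences were -0.18 (0.147) and -0.19 (0.119). Another Pfkl probe set, with untreated levels of 6.41 to 6.66, was called higher by 0.43 and 0.36, so the direction of this gene depends on the probe set.

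The aldolases split the six-carbon sugar, and triose phosphate isomerase interconverts the products. Aldoc, the brain aldolase, was lower, at -0.30 ± 0.085 at 4 h and -0.48 at 6 h (adjusted p = 0.0223 and 0.00115), and the 4 h call was lost without untreated B (0.0696) or C (0.0611) or any 4 h array. Aldoa, the muscle and most common aldolase, was lower, at -0.20 ± 0.056 at 6 h (adjusted p = 0.0177), lost without RA 6 h replicate C (0.0564). Tpi1 had levels of 13.25, 13.19 and 13.41 on untreated arrays, 13.16, 13.24 and 13.15 at 2 h, 12.83, 12.89 and 13.00 at 4 h, and 12.78, 12.93 and 13.03 at 6 h. Its arrays at 4 and 6 h lay below all earlier ones, and the difference was -0.38 at 4 h and -0.37 at 6 h, each ± 0.082 (adjusted p = 0.00528 and 0.00501), on all 3 probe sets.

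Of the genes for later steps, 1 was called. Ldha, which reduces pyruvate to lactate, was lower, at -0.18 ± 0.056 at 4 h and -0.25 at 6 h (adjusted p = 0.0288 and 0.0049), and the 4 h call was lost without untreated C (0.0563) or RA 4 h replicate A (0.0858) or C (0.0806). Pgk1, Pgam1 and Pkm, which encode phosphoglycerate kinase, phosphoglycerate mutase and pyruvate kinase, had differences between -0.09 and -0.12 at 4 and 6 h and were not called. With a trended and robust variance Pgk1 (adjusted p = 0.0302 and 0.00768) and Pgam1 (0.0292 and 0.0236) were called lower at both times, and Pkm was not. Gapdh was read from the array's control probe sets, after the values were known. On the 3′ one its levels were 14.54 to 14.60 on untreated arrays, 14.55 to 14.57 at 2 h, 14.51 to 14.54 at 4 h and 14.54 to 14.55 at 6 h, with differences of -0.01, -0.05 and -0.03 ± 0.048 (adjusted p = 0.932, 0.567 and 0.743). The 5′ one gave 0.04, 0.01 and 0.02 and the middle one 0.02, -0.02 and -0.01, so the sign differed between them. Several of these genes have near-identical pseudogene copies whose transcripts the probes may also bind, so their values are uncertain to that extent.

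**Figure D3:**
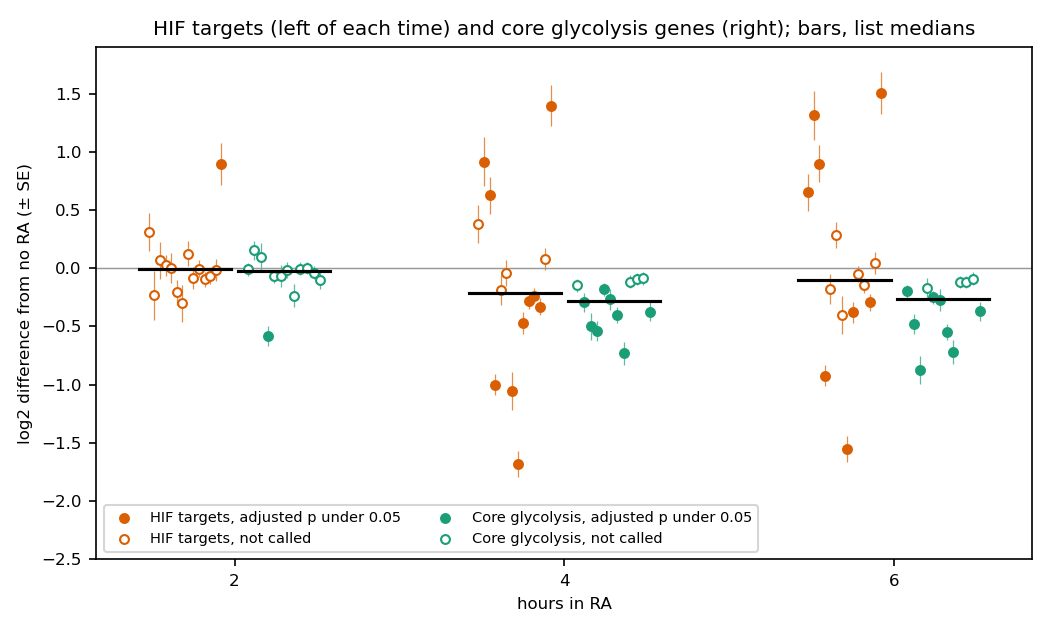
Log2 difference from no RA (± SE) of each of the 14 HIF targets (left of each time) and 12 core glycolysis genes (right) at 2, 4 and 6 h of RA, with filled points for adjusted p under 0.05 and black bars for list medians. The targets spread from -1.68 to 1.40 at 4 h, and the core glycolysis genes from -0.73 to -0.09.

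Set beside each other, the targets and core glycolysis had close medians at 4 h (-0.21 and -0.28) and different ones at 6 h (-0.10 and -0.26), and the difference between the lists was not tested. In the counts above the targets were called in both directions at 4 and 6 h and core glycolysis in one. The comparisons at both times share their untreated arrays. The lists do not separate targets from non-targets, since HIF also acts on genes for sugar use, Hk2 among them. From 4 to 6 h neither list had a called gene, and the median step of the targets was 0.12.

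Regulators and transporters went their own ways. Slc2a1, the glucose transporter GLUT1, rose, with levels of 13.35, 13.30 and 13.52 on untreated arrays, 13.56, 13.58 and 13.52 at 2 h, 13.62, 13.62 and 13.72 at 4 h, and 13.77, 13.72 and 13.79 at 6 h. The arrays at 4 and 6 h were above all untreated ones. It was higher by 0.26 ± 0.065 at 4 h and 0.37 at 6 h (adjusted p = 0.0106 and 0.00111), on all 3 probe sets, and without untreated C also at 2 h (0.23, 0.0452). The 4 h call was lost when only the arrays of both groups were fitted (0.0702). Slc2a3, the transporter GLUT3, was lower at 6 h, at -0.20 ± 0.052 (adjusted p = 0.012), and the call was lost without RA 6 h replicate A (0.0504). All 4 of its probe sets were called lower at 6 h in the fit of all probe sets, with differences from -0.68 to -0.20. The smallest was on the probe set used, with an untreated mean of 14.29, and the largest on one with a mean of 8.54. The size of the fall thus depends on the probe set, and the reason was not tested. At 4 h the probe set used was not called (-0.09), but the gene was with its probe sets averaged (-0.28, adjusted p = 0.0141) or without those that may bind several transcripts (-0.45, 0.00508).

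Slc16a3, the lactate exporter MCT4, had levels of 9.28, 8.95 and 9.48 on untreated arrays, 8.81, 8.97 and 9.28 at 2 h, 8.34, 8.76 and 8.67 at 4 h, and 9.44, 9.18 and 9.48 at 6 h. It was low at 4 h alone (-0.64, adjusted p = 0.0102) and within the untreated range at 6 h (0.13). The genes for the bifunctional enzymes that set fructose-2,6-bisphosphate, an activator of phosphofructokinase, were higher at 6 h: Pfkfb3 by 0.42 ± 0.088 (adjusted p = 0.00342) and Pfkfb4 by 0.28 ± 0.062 (0.00467). Pfkfb3 had 1 of 2 probe sets called. Pfkfb4 was higher at 4 h too (0.23, 0.0162), a call lost without untreated B (0.062) or RA 4 h replicate A (0.0533) or C (0.0504).

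The untreated arrays differed from one another in these genes more than the arrays of any RA time. For HIF targets the median SD within a group was 0.22 on untreated arrays, and 0.09, 0.092 and 0.092 at 2, 4 and 6 h, and for core glycolysis it was 0.12, 0.03, 0.037 and 0.053. Over all genes the values were 0.12, 0.071, 0.083 and 0.085. Untreated C was the highest of the 3 for 12 of 14 targets and 12 of 12 core glycolysis genes, and for 47.6% of all genes. Untreated A was the lowest for 12 of 14 targets, 6 of 12 core glycolysis genes and 31.7% of all genes.

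List medians by array show the same order: relative to the untreated mean the targets stood at -0.20, -0.04 and 0.175 on untreated A, B and C, and core glycolysis at -0.06, -0.03 and 0.12. At 4 h the targets stood at -0.22, -0.16 and -0.19 and core glycolysis at -0.29, -0.26 and -0.28, below every untreated array for core glycolysis but not for the targets, where untreated A lay at -0.20. Feeder markers ran otherwise on untreated arrays, at -0.01, 0.16 and -0.23 on A, B and C. The part of feeder RNA in the spread among untreated arrays was not tested.

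**Figure D4:**
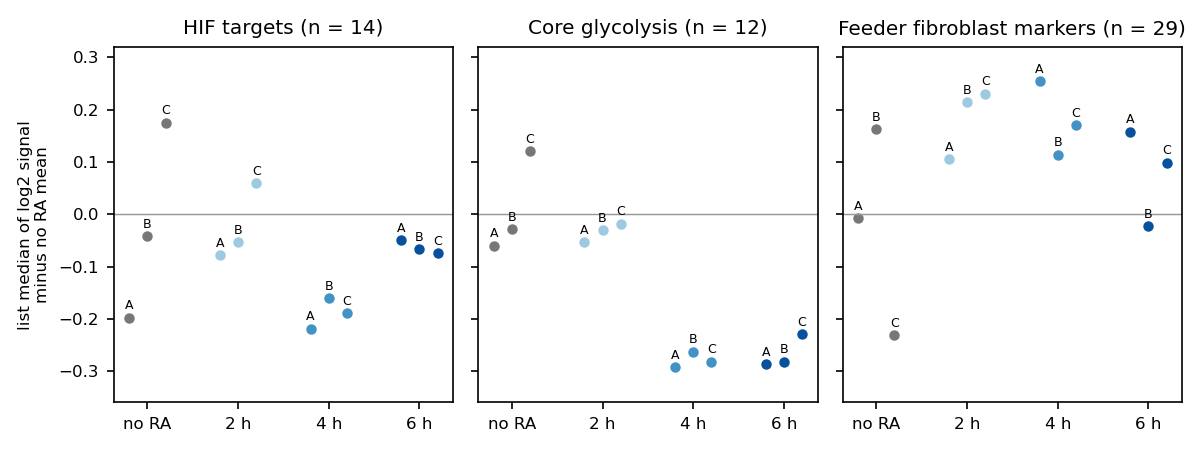
Median over each list of log2 signal minus the untreated mean, for every array (letters A, B and C) of no RA, 2, 4 and 6 h RA, for HIF targets (n = 14), core glycolysis (n = 12) and feeder fibroblast markers (n = 29). Untreated C is the highest untreated array for targets and core glycolysis and the lowest for feeder markers, and core glycolysis lies below all untreated arrays at 4 and 6 h.

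Other genes of the same pathways were read from further lists, whose counts stand against 12.8% of all genes higher and 14.1% lower at 4 h, and 15% and 14.7% at 6 h. Of 12 measured genes that control HIF, 3 were higher and 3 lower at 4 h, and 4 were higher and 3 lower at 6 h. At 6 h those with the largest changes were Hif3a, whose product restrains the other HIFs (-0.70 ± 0.096, adjusted p = 0.000227), Siah2, a ubiquitin ligase that removes prolyl hydroxylases (0.63, 0.0004), the beta subunit gene Arnt (-0.43, 0.00407) and its relative Arnt2 (-0.43, 0.000202). Siah2 was already higher at 2 h (0.45, adjusted p = 0.0295).

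Among 25 further HIF targets 6 were higher and 6 lower at 4 h, and 7 were higher and 5 lower at 6 h, with all genes likewise called in both directions. Stc2, a secreted glycoprotein also induced by stress, was higher by 0.95 at 2 h and 1.40 at 6 h, and the lipoprotein receptor Vldlr by 1.26 at 6 h. Ddit4, an inhibitor of mTORC1, had levels of 10.41, 10.75 and 11.90 on untreated arrays, against 12.08 to 12.18 at 4 h and 12.09 to 12.14 at 6 h, so the untreated arrays ranged more widely than the RA arrays, and its difference of 1.10 ± 0.27 (adjusted p = 0.00883 at 6 h) is the least precise of these. Car12, a carbonic anhydrase, was lower, at -1.33 at 4 h and -0.95 ± 0.16 at 6 h (adjusted p = 9.68e-05 and 0.000695).

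Of 19 other isoforms of glycolytic enzymes and transporters, 1 was higher and 5 lower at 6 h, a share near that of all genes (29.7% in either direction). Among the lower were Pfkfb2 (-0.56), Pgam2 (-0.46), Hkdc1 (-0.38) and the lactate transporter Slc16a1 (-0.32). Genes for the entry of pyruvate into mitochondria and for pyruvate dehydrogenase and its control were split, with 4 higher and 5 lower of 12 at 6 h. The pyruvate carrier subunit Mpc1 was higher by 0.50 and the dehydrogenase subunit Dld by 0.31. The kinase Pdk2 was lower, at -0.73, and the phosphatase Pdp1 at -0.54. The pentose phosphate pathway had 1 gene higher (Rpe, 0.27) and 1 lower (Tkt, -0.14) of 7 at 6 h, again near the share of all genes. Rpia of the same pathway was lower at 2 h (-0.26, adjusted p = 0.0278), higher at 4 h (0.19, 0.0244) and not called at 6 h (0.10, 0.191). In gluconeogenesis, the reverse pathway, 2 of 6 were higher and 1 lower at 6 h. Pck2, the mitochondrial phosphoenolpyruvate carboxykinase, was higher by 1.09 ± 0.12 (adjusted p = 4.26e-05). Fbp1, which opposes phosphofructokinase, was higher by 1.45 ± 0.16 (6.13e-05), with signal under the overall median on 9 of 12 arrays, and G6pc3 was lower, at -0.46.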

How the data were processed

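RNA of KH2 cells was measured on Affymetrix mouse arrays, and the arrays were placed in 4 groups of 3 by their labels. Each array has 45101 probe sets, and per the labels and the values the authors deposited signal on a log2 scale. The submitters' processing notes list limma 3.4.3, and the method of normalization is not given in the sources used here. No further normalization was applied, and the number of arrays limits the precision.

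Probe sets were named from the platform annotation: 34958 had 1 gene, 932 several and 9211 none, and 34754 names had an identifier in a RefSeq gene table. Probe sets of several genes and 64 controls were left out. A gene was read from its probe set of highest mean signal (18193 genes), with no filter on dim genes, and all 45037 probe sets that are not controls were fitted as well. One mean per group was estimated from all 12 arrays (limma 3.58.1, R 4.3.3; lmFit, then eBayes; residual degrees of freedom 8, prior 3.78), with p-values adjusted over all features of a comparison. On simulated data of the same size, with 200 changed genes, 59 to 68% of changes of 0.5 and 95 to 99% of changes of 1 (log2) were called, with 6 to 13 false calls. In the data 4893 genes were called at 4 h and 5408 at 6 h, and untreated arrays varied more than RA arrays. The simulation gave a gene the same spread in all groups, so its shares may not hold for these fits.

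All members are accounted for. Of each other list, up to 4 called genes with the largest 6 h change are named, and Cyp26a1 and Hoxb1 check the treatment. The members and lists were chosen with earlier results of these data known. Arrays were not paired by letter in the fit. Deviations of same-letter arrays correlated between -0.128 and 0.315, and 5 of 12 arrays correlated best with their own letter. Some such matches arise by chance, so with 3 arrays per group this cannot show whether the letters pair the arrays. Motifs were searched in RefSeq promoter windows with Python 3.11.15. Alternatives covered scaling, probe set choice, filters, variance model, thresholds, the replicate block and leaving out each array.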

Additional observations from a re-analysis of the deposited data

How the results depend on the processing

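Calls were followed over 6 comparisons of 33 members (198 values). Under each alternative scaling, averaging of probe sets, variance model or block, 178 to 196 kept their call status. So did 185 of 192 with dim genes removed, 188 of 192 without probe sets that may bind several transcripts, and 181 to 193 without any single array. A value kept its status if it was called in the same direction in both fits, or in neither. The sign of values called in neither fit was not compared. The only reversed call was Egln1 at 6 h minus 2 h, -0.007958 with its probe sets averaged. Of the members called against no RA, 2 of 3 at 2 h, 17 of 23 at 4 h and 18 of 21 at 6 h kept the call without any single array. Counts moved as follows; the causes were not tested. Members higher at 6 h minus 4 h numbered 2 after median centring, 0 with probe sets averaged, 3 with dim genes removed, 3 with a trended and robust variance, 6 with array weights (1 lower) and 4 when only the arrays of both groups were fitted. With probe sets averaged, 0 were higher at 2 h and 2 at 4 h minus 2 h, and the 4 h median of core glycolysis was -0.1656. With array weights these were 2, 7 and -0.2147. With only the arrays of both groups, 0 members were higher and 1 lower at 2 h and 2 higher at 4 h, and by probe set 0 higher and 1 lower at 2 h and 3 higher at 4 h. At adjusted p under 0.01, 0 members were higher at 2 h, and 3 were higher and 11 lower at 4 h. Requiring a 1.5-fold change left 1 lower at 2 h, 3 higher and 5 lower at 4 h, and 4 higher and 4 lower at 6 h. With the replicate letter as a block, 2 members were higher at 6 h minus 4 h, and no other count moved by over 1.5 times.

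Leaving out 1 array at a time, members higher numbered 0 to 3 at 2 h, 2 to 5 at 4 h minus 2 h and 0 to 6 at 6 h minus 4 h, and members lower 0 to 1 at 6 h minus 4 h and 7 to 13 at 6 h minus 2 h. The core glycolysis median ran from -0.3523 to -0.1981 at 4 h and from -0.2958 to -0.205 at 6 h. Probe sets higher numbered 0 to 1 at 2 h and 6 to 12 at 4 h. The highest count at 6 h minus 4 h, the highest probe set count at 4 h and both core glycolysis medians nearest 0 came without untreated C, the array farthest from its group mean. Car9, under the overall median on 7 of 12 arrays, and 3 arrays per group limit what could be detected.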
